A study of Mus musculus with 6 samples.

Results

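The miR-23, miR-27 and miR-24 clusters are a pair of related groups of microRNA (miRNA) genes, and 11 of the 984 mature miRNA rows measured in mouse myocardium belong to them. They were taken by name, as every row beginning miR-23a, miR-23b, miR-27a, miR-27b or miR-24, with both arms of each hairpin. Their main products are listed as mmu-miR-23a-3p, mmu-miR-23b-3p, mmu-miR-27a-3p, mmu-miR-27b-3p and mmu-miR-24-3p, where mmu stands for the mouse and is left out from here on. The a cluster gives 5 of the 11 rows (miR-23a-5p and -3p, miR-27a-5p and -3p, and miR-24-2-5p), and the b cluster gives another 5 (miR-23b-5p and -3p, miR-27b-5p and -3p, and miR-24-1-5p). The last row, miR-24-3p, is made by both clusters.

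Small RNA from the muscle wall of the mouse heart was sequenced in 6 libraries. Of these, 3 had a post-mortem interval, the time from death to sampling, of 0 h, and 3 an interval of 6 d. The labels give no strain, age, sex or treatment, and in the field for the genotype they hold the interval. Whether the 3 libraries of an interval come from different animals is not said either. The p-values therefore reflect only how far these libraries spread, and that spread may be technical.

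A miRNA hairpin is cut from a longer primary transcript and then diced into a duplex, of which 1 strand (the guide) is usually kept in an Argonaute protein while the other (the passenger) is mostly lost. The guide pairs with messenger RNAs mainly through its seed, bases 2 to 8 from the 5′ end, and lowers their translation and stability. The 3 hairpins of each cluster lie in 1 primary transcript, and the a and b clusters arose by duplication. The clusters are known from endothelium and other vascular cells, where they take part in vessel growth. In heart muscle miR-23a is known for a role in hypertrophic growth, miR-24 for restraining cell death, and miR-27 for targets in lipid metabolism.

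By the RefSeq miRNA table for the mouse build GRCm38.p6, the a cluster lies on the plus strand of chromosome 8, with Mir23a at 84208518 to 84208592, Mir27a at 84208672 to 84208758 and Mir24-2 at 84208815 to 84208921. It spans 404 bases outside any protein-coding gene, with Zswim4 as the nearest one, and Mir24-2 overlaps an exon of the transcript Gm26532 in the GENCODE annotation. The b cluster lies on the plus strand of chromosome 13, with Mir23b at 63300484 to 63300557, Mir27b at 63300712 to 63300784 and Mir24-1 at 63301208 to 63301275. It spans 792 bases within the gene 2010111I01Rik on the same strand and Fancc on the opposite strand. Mir27b and Mir24-1 overlap an annotated exon of 2010111I01Rik, while Mir23b is intronic.

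The table holds a mature sequence for 10 of the 11 rows. The row without one is the guide miR-23b-3p, so the miR-23 guides were not compared in sequence. The guides are shown first, because their seeds define which transcripts they pair with. The seed is in capitals.
miR-23a-3p: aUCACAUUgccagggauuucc
miR-27a-3p: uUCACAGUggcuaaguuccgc
miR-27b-3p: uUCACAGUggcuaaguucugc
miR-24-3p: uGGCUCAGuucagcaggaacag
The miR-27 guides of the a and b clusters share the seed UCACAGU and their first 18 bases, and differ at 1 position counted from the 5′ end (C19U, with the base of miR-27a first). How reads that fit both miR-27 rows, or both miR-23 rows, were counted is not given in the sources used here. The split of reads between a and b is uncertain to that extent. Among the rows with a sequence in the table, none outside the clusters had the seed of a member, and miR-23b-3p could not enter that search.

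The passenger strands whose a and b forms are compared below have these sequences, again with the seed in capitals.
miR-27a-5p: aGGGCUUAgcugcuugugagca
miR-27b-5p: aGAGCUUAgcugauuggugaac
miR-24-2-5p: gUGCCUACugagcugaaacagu
miR-24-1-5p: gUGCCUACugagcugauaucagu
The miR-27 passengers share their first 2 bases and differ in the seed. The miR-24 passengers share the seed UGCCUAC and their first 16 bases, and only their 3′ ends tell the a cluster from the b cluster. The hairpins of miR-24 show why the guide cannot be assigned to a cluster, since both hold the same miR-24-3p (in capitals).
Mir24-2: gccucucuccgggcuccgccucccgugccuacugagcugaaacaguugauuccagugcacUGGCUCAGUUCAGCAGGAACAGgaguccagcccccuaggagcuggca
Mir24-1: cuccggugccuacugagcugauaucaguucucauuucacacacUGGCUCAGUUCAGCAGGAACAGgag

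The 0 h libraries held between 4468547 and 7906563 miRNA reads and the 6 d libraries between 617069 and 1889593. Values are normalised CPM, counts per 1000000 reads, that is, reads scaled by the library total and by a further factor per library. All 5 cardiac muscle markers were detected, and their summed share of reads was 22.8% to 37.4% at 0 h and 20.4% to 44.6% at 6 d. Nearly all of that sum was miR-1a-3p (345224 CPM at 0 h and 317670 at 6 d, limma adjusted p = 0.674). Among the other cardiac markers miR-499-5p fell (log2 fold change -1.48, limma adjusted p = 0.0127), as did miR-208a-3p (-1.49, 0.0241), and miR-133a-3p rose (1.43, 0.00688). Other lists moved between the intervals. The 3 red blood cell miRNAs went from 1.03% to 1.30% of reads at 0 h to 5.59% to 10.3% at 6 d, the liver miRNA miR-122-5p from at most 0.125% to at least 0.173%, 4 epithelial miRNAs from 0.00881% to 0.0350% to 0.118% to 0.227%, and the skeletal muscle miRNA miR-206-3p from at most 0.00141% to at least 0.0813%. The 4 fibroblast miRNAs took 0.449% to 0.686% of reads at 0 h and 1.24% to 1.79% at 6 d, the 4 leukocyte miRNAs 0.0370% to 0.0532% and 0.0599% to 0.125%, and the 3 smooth muscle miRNAs 5.79% to 7.40% and 4.77% to 7.59%. In limma the red blood cell miRNA miR-451a rose (log2 fold change 2.30, adjusted p = 0.0011), as did the epithelial miR-200a-3p (6.00, 5.4e-06), miR-200b-3p (4.41, 0.000227) and miR-205-5p (from 1.32 to 71.2 CPM, adjusted p = 8.78e-05), the liver miR-122-5p (log2 fold change 3.42, adjusted p = 0.00949) and miR-206-3p (6.27, 5.4e-06). The red blood cell sum was nearly all miR-451a (13526 CPM at 0 h and 69162 at 6 d). Neither miR-144-3p (log2 fold change -0.77, limma adjusted p = 0.298) nor miR-144-5p (0.44, 0.436) was called. The epithelial miR-203-3p, the highest of its list at 0 h, was not called either (-0.26, limma adjusted p = 0.724). Of the fibroblast miRNAs miR-214-3p fell (-1.59, limma adjusted p = 0.00988) and miR-21a-5p rose (1.24, 0.0347). No leukocyte or smooth muscle miRNA was called. None of the 38 miRNAs on the lists was at 0 reads in any library. The part of these other cell types, and of depth, in the results that follow was not tested.

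Fresh myocardium held the members at very different levels. Together the 11 rows took 1.70%, 1.62% and 2.26% of the reads of the 0 h libraries. miR-27b-3p was the most abundant member in each library, ranked 12 to 17 among all 984 miRNAs at 0 h. It was followed by miR-27a-3p (rank 17 to 20) and miR-24-3p (rank 24 to 31), and the CPM ranges of these 3 guides at 0 h did not overlap. The miR-23 guides stood far lower, with 238 ± 11.6 CPM for miR-23a-3p and 232 ± 26.6 CPM for miR-23b-3p (SD, n = 3), and their ranges overlapped. The passenger miR-24-2-5p, at 617 ± 117 CPM, lay above both miR-23 guides. Below these came miR-27a-5p and miR-24-1-5p, which overlapped, then miR-27b-5p, miR-23b-5p and miR-23a-5p in falling order. Mature miRNAs are of nearly equal length, so no length scaling was applied, and a level is a level of reads.

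**Figure D1:**
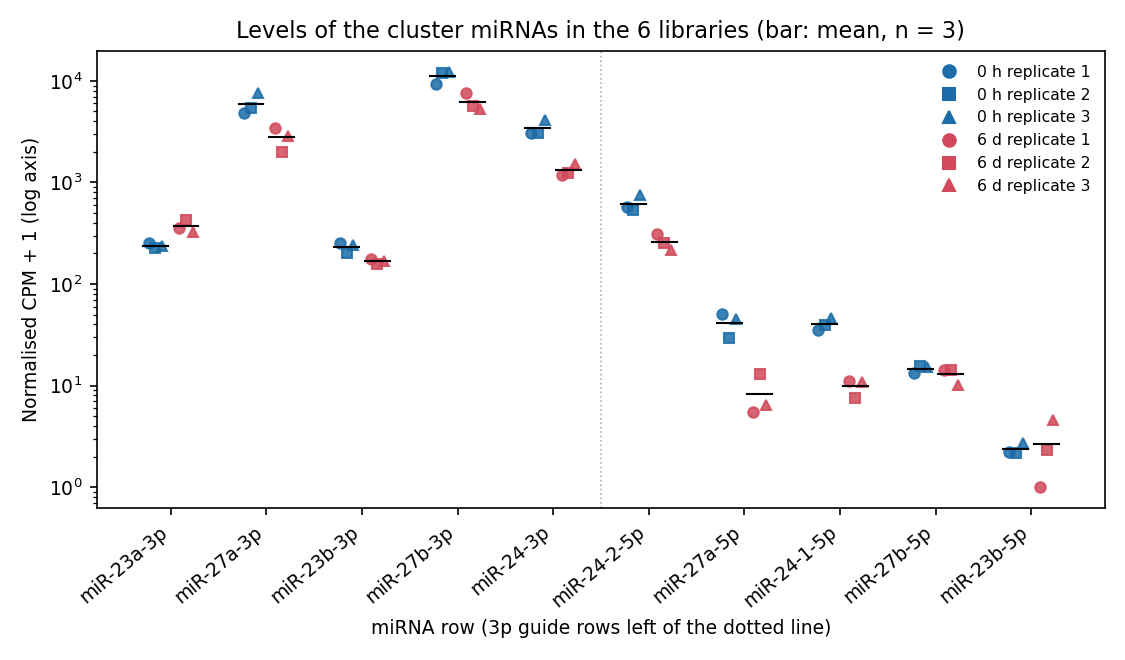
Normalised CPM on a log scale, with 1 added, of the 10 tested member rows in each of the 6 libraries, with 1 point per library and the mean of each interval as a line. The guides of miR-27 and miR-24 lie highest at both intervals, and miR-23a-3p is the guide that lies higher at 6 d. The row miR-23a-5p, which was not tested, is not shown.

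After 6 d the guides miR-24-3p, miR-27a-3p and miR-27b-3p were lower in normalised level, while miR-23a-3p was higher in each 6 d library without passing the test. Of the 11 members, 10 passed the filter on low values, which asks for 1 CPM or more in 3 or more libraries. 9 members had such a value in all 6 libraries, and miR-23b-5p in 5. At 6 d against 0 h, 6 of the 10 fell and 0 rose at a Benjamini-Hochberg adjusted p under 0.05 in limma, and 0 rose at an unadjusted p under 0.05. Over all 470 tested miRNAs, 21.9% fell and 16% rose, and 37.9% changed in either direction. The median log2 fold change was -0.99 over the tested members and -0.33 over all tested miRNAs. The 6 that fell were the guides miR-27a-3p, miR-27b-3p and miR-24-3p and the passengers miR-27a-5p, miR-24-2-5p and miR-24-1-5p. By cluster, 3 of the 4 tested a rows and 2 of the 5 tested b rows fell, beside the shared miR-24-3p. The 7 members whose libraries at 6 d all lay below those at 0 h compare with 30.9% of all tested miRNAs, and the 1 that lay above, miR-23a-3p, with 19.8% (50.6% in either direction).

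These falls are relative to the other miRNAs of a library and depend on the scaling. With library totals alone as the scaling, 2 of 10 members were called, both lower (miR-27a-5p and miR-24-1-5p), against 26.1% of all tested miRNAs called, 8.47% lower and 17.6% higher. edgeR called 4 of 9 members, all lower. Of all 363 miRNAs it tested, 43% were called in either direction, 75 lower and 81 higher. DESeq2 called 5 members lower and 1 higher (miR-23a-3p). Of all 507 miRNAs it tested, 33.7% were called in either direction, 74 lower and 97 higher. The split of all calls was 75 higher and 103 lower on the deposited scale, 90 and 84 with RLE size factors (the median-of-ratios factors of DESeq2), and 83 and 40 with library totals alone. The median of all tested miRNAs moved from -0.33 to -0.17 and 0.02 under these scalings, so changes are also given relative to it. In bulk tissue, fewer cells of a type and less RNA per cell cannot be told apart.

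miR-24-3p, the guide that both clusters make, had 3100, 3092 and 4078 CPM in the 0 h libraries and 1189, 1240 and 1507 in the 6 d libraries. Every 6 d library lay below every 0 h library. Its log2 fold change was -1.38 (SE 0.29, limma adjusted p = 0.00614), or 2.60-fold lower at 6 d. Relative to the median of all tested miRNAs it lay 1.05 lower on the deposited scale, 0.99 with RLE factors and 0.94 with library totals on the log2 scale. With library totals alone the call was lost (log2 fold change -0.92, limma adjusted p = 0.175), and its shares of the reads overlapped between the intervals.

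miR-27a-3p, the a cluster guide, had 4803, 5355 and 7674 CPM at 0 h and 3439, 1984 and 2889 at 6 d. The groups did not overlap, and the third 0 h library stood above the other 0 h libraries while the second 6 d library was the lowest. The log2 fold change was -1.11 (SE 0.34, limma adjusted p = 0.0263). Its b cluster counterpart miR-27b-3p had 9390.2, 11844 and 12356 CPM at 0 h and 7674, 5610 and 5304 at 6 d. Again every 6 d library was lower, and the first 6 d library was the nearest to the 0 h libraries. Here the log2 fold change was -0.86 (SE 0.30, limma adjusted p = 0.0486), the largest adjusted p of the 6 calls. Neither miR-27 call held with RLE factors (limma adjusted p = 0.0599 for miR-27a-3p and 0.125 for miR-27b-3p), with library totals (0.333 and 0.483) or in edgeR's quasi-likelihood test (0.0570 and 0.114), and leaving out 1 library at a time kept the call in 2 of 6 fits for miR-27a-3p and in 1 of 6 for miR-27b-3p. In DESeq2 miR-27a-3p kept its call (adjusted p = 0.0401) and miR-27b-3p did not (0.0968). The same held with the replicate number as a block (limma adjusted p = 0.0198 and 0.073).

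miR-23a-3p, which lies next to miR-27a in the a cluster, had 250.5, 227.5 and 236.4 CPM at 0 h and 352.6, 428.9 and 326.6 at 6 d. All 6 d libraries lay above all 0 h libraries, which were close together. The log2 fold change of 0.62 (SE 0.29, 95% interval -0.04 to 1.28) did not pass the threshold on the deposited scale (limma adjusted p = 0.125). It did with RLE factors (log2 fold change 0.85, limma adjusted p = 0.0478) and in DESeq2 (0.86, adjusted p = 0.0135). Relative to the median of all tested miRNAs, miR-23a-3p stood 0.95, 1.01 and 1.06 higher under the deposited, RLE and library total scalings. It moved from rank 92 to 97 at 0 h to rank 73 to 79 at 6 d, and its share of reads did not overlap between the intervals.

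miR-23b-3p, its b cluster counterpart, had 253.4, 202.2 and 240.2 CPM at 0 h and 175.1, 157.5 and 168.7 at 6 d. The 6 d libraries were all lower and close together. The log2 fold change of -0.47 (SE 0.29, 95% interval -1.11 to 0.18) did not pass the threshold (limma adjusted p = 0.225). As a share of reads the groups overlapped, with a log2 fold change of -0.01 by library totals.

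**Figure D2:**
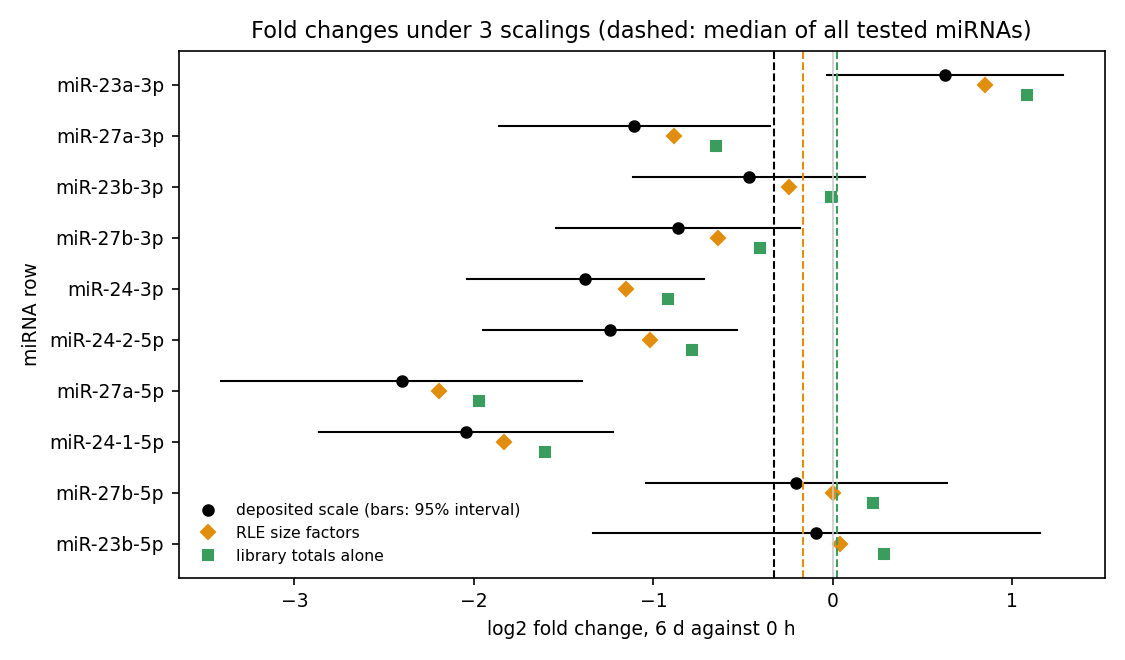
Log2 fold change of the 10 tested members at 6 d against 0 h on the deposited scale (circles, with 95% intervals), with RLE size factors (diamonds) and with library totals alone (squares). The dashed lines mark the median of all tested miRNAs under each scaling, and miR-23a-3p lies to the right of all 3 of them while miR-24-3p and both miR-27 guides lie to the left.

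The ratio of an a row to its b row within a library does not depend on the scaling. It changed for the miR-23 guides and did not pass the test for the miR-27 guides. At 0 h, miR-23a-3p gave 49.7%, 52.9% and 49.6% of the reads of the miR-23 guides, so that a and b were nearly even. At 6 d it gave 66.8%, 73.1% and 65.9%. The Wilson 95% intervals of the 6 d libraries (lowest bound 61.9%) lay above those of the 0 h libraries (highest bound 54.9%), and these intervals cover counting error only. The mean went from 50.7% ± 1.90 to 68.6% ± 3.93 (SD, n = 3 each). In reads, miR-23a-3p had 1029, 1368 and 1531 against 1041, 1216 and 1556 of miR-23b-3p at 0 h, and 554, 324 and 362 against 275, 119 and 187 at 6 d.

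All 43 pairs of the table that differ only in the letters a and b, with both rows tested, were fitted in limma on the log2 ratio with 1 read added to each row. The miR-23 guide ratio rose by 1.09 on the log2 scale (SE 0.16, 95% interval 0.67 to 1.51, limma adjusted p = 0.0129), which is 2.13-fold. Of the 43 pairs, 32.6% changed, 25.6% toward b and 6.98% toward a. The 14 pairs called became 4 without the third 0 h library (3 toward b and 1 toward a), 8 without the first 0 h library, 9 without the third 6 d library, 8 after thinning and 7 with the replicate block. The 3 pairs that moved toward a were the miR-23 guides, miR-92a and miR-92b-3p (log2 change 1.29, limma adjusted p = 0.0129) and miR-1843a and miR-1843b-5p (0.72, limma adjusted p = 0.0307). The median change over the 43 pairs was -0.37. Without the third 0 h library the miR-23 call was just lost (log2 change 1.06, limma adjusted p = 0.0518), and the exact permutation test of this ratio alone gave p = 0.1, the smallest that 3 against 3 libraries allow.

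For the miR-27 guides, miR-27a-3p gave 33.8%, 31.1% and 38.3% of the miR-27 guide reads at 0 h and 30.9%, 26.1% and 35.3% at 6 d. The groups overlapped, and miR-27b-3p was the larger in all 6 libraries. The log2 ratio changed by -0.24 (SE 0.21, 95% interval -0.80 to 0.31, limma adjusted p = 0.446), so a change of up to 0.80 toward miR-27b-3p lies within the interval. The miR-23 ratio divided by the miR-27 ratio, chosen after the data were seen, rose 2.52-fold and did not overlap between intervals, with an exact permutation p of 0.1, the smallest possible, and 0.133 after adjustment over 4 ratios tested in this way.

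**Figure D3:**
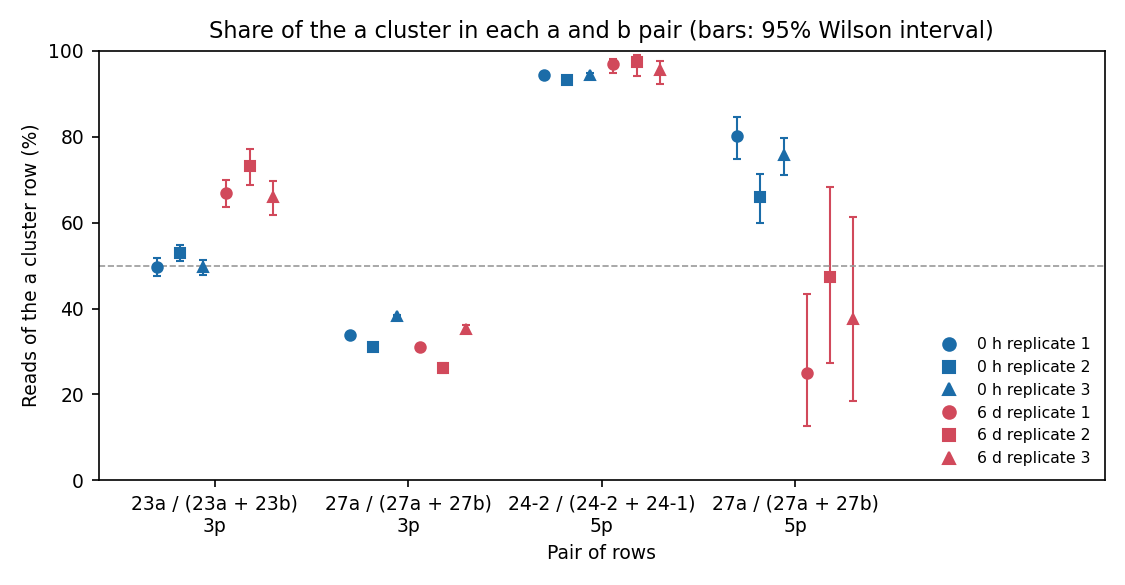
Share of the a cluster row in the reads of an a and b pair, in percent, for the guides of miR-23 and miR-27 and the passengers of miR-27 and miR-24, with 1 point per library and its Wilson 95% interval. The miR-23 guide share is near 50.7% at 0 h and 68.6% at 6 d, the miR-27 guide shares overlap, and the miR-27 passenger share is lower at 6 d on few reads.

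The passenger strands give further a and b pairs. The reads of miR-27a-5p numbered 203, 170 and 287 at 0 h and 7, 9 and 6 at 6 d, and those of miR-27b-5p 50, 88 and 92 and then 21, 10 and 10. The a row was thus the larger at 0 h, with 80.2%, 65.9% and 75.7% of the reads of both, and not at 6 d, with 25.0%, 47.4% and 37.5%. The log2 ratio fell by 2.27 (SE 0.46, limma adjusted p = 0.0302), toward the b cluster, where the miR-23 guide ratio moved toward a. This rests on 16 to 28 reads per library at 6 d, and the call was lost without the first 0 h library (limma adjusted p = 0.0929), without the third 0 h library (0.0746), without the third 6 d library (0.0612) and with the replicate number as a block (0.110). In normalised level miR-27a-5p had the largest fold change of the tested members (log2 fold change -2.40, SE 0.45, limma adjusted p = 0.00306). That call held in all 6 fits leaving out 1 library, on 6 to 9 reads per library at 6 d.

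For miR-24 only the passengers tell the clusters apart. miR-24-2-5p had 567.7, 532.4 and 749.7 CPM at 0 h and 310.7, 252.9 and 215.6 at 6 d, and miR-24-1-5p had 34.3, 38.6 and 45.6 CPM at 0 h and 10.2, 6.62 and 9.93 at 6 d. Both fell without overlap, by 1.24 on the log2 scale for miR-24-2-5p (SE 0.32, limma adjusted p = 0.0129) and by 2.04 for miR-24-1-5p (SE 0.37, limma adjusted p = 0.00233). The a cluster form gave 94.3%, 93.2% and 94.3% of the passenger reads at 0 h and 96.8%, 97.4% and 95.6% at 6 d. The log2 ratio of the forms, also chosen after the data were seen, changed by 0.77 toward the a cluster without overlap (exact permutation p = 0.1, adjusted p = 0.133). At 6 d miR-24-1-5p had only 16, 5 and 11 reads, and with library totals alone miR-24-2-5p was no longer called (limma adjusted p = 0.190) while miR-24-1-5p was (0.0323).

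**Figure D4:**
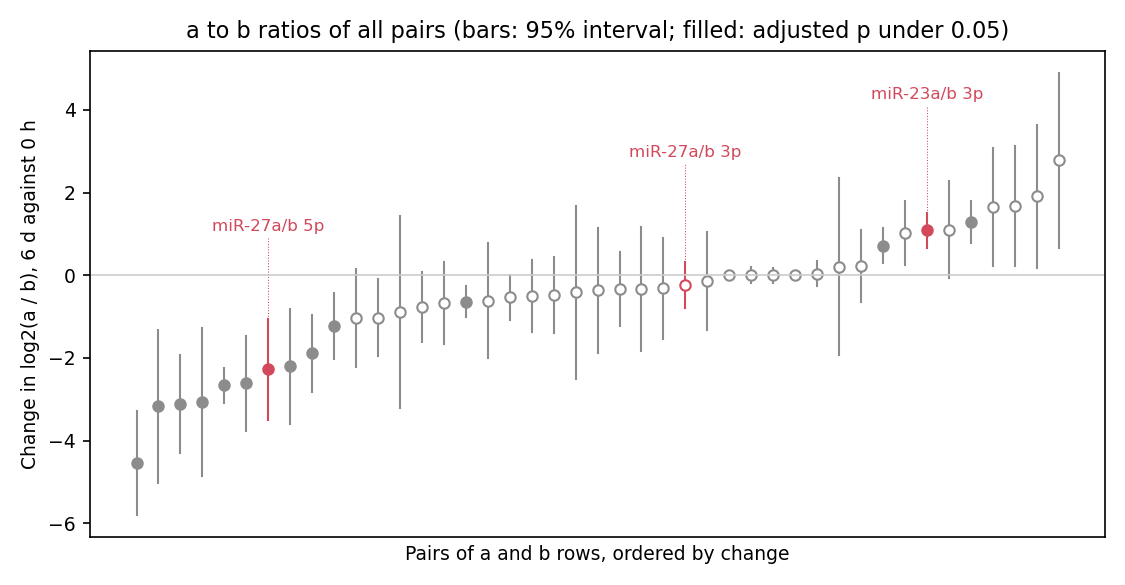
Change in the log2 ratio of a to b reads, 6 d against 0 h, of all 43 pairs ordered by change, with 95% intervals from limma and filled points for adjusted p under 0.05. The pair of miR-23 guides is at 1.09, that of the miR-27 guides at -0.24 and that of the miR-27 passengers at -2.27.

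Neighbours within a cluster were set against each other as well. In the a cluster there were 19.2, 23.5 and 32.4 reads of miR-27a-3p for each read of miR-23a-3p at 0 h, with 1 read added to each, and 9.73, 4.62 and 8.82 at 6 d. All 6 d libraries had relatively more miR-23a-3p, and the ratio of miR-23a-3p to miR-27a-3p rose 3.33-fold (log2 ratio -4.61 ± 0.38 at 0 h and -2.88 ± 0.59 at 6 d, SD, n = 3 per interval, exact permutation p = 0.1, adjusted p = 0.133). In the b cluster there were 37.0, 58.5 and 51.4 reads of miR-27b-3p for each read of miR-23b-3p at 0 h and 43.7, 35.3 and 31.3 at 6 d. These groups overlapped, and the ratio of miR-23b-3p to miR-27b-3p changed by 0.40 on the log2 scale (exact permutation p = 0.2, adjusted p = 0.2). With 3 against 3 libraries, none of these single ratios could reach a p under 0.05.

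**Figure D5:**
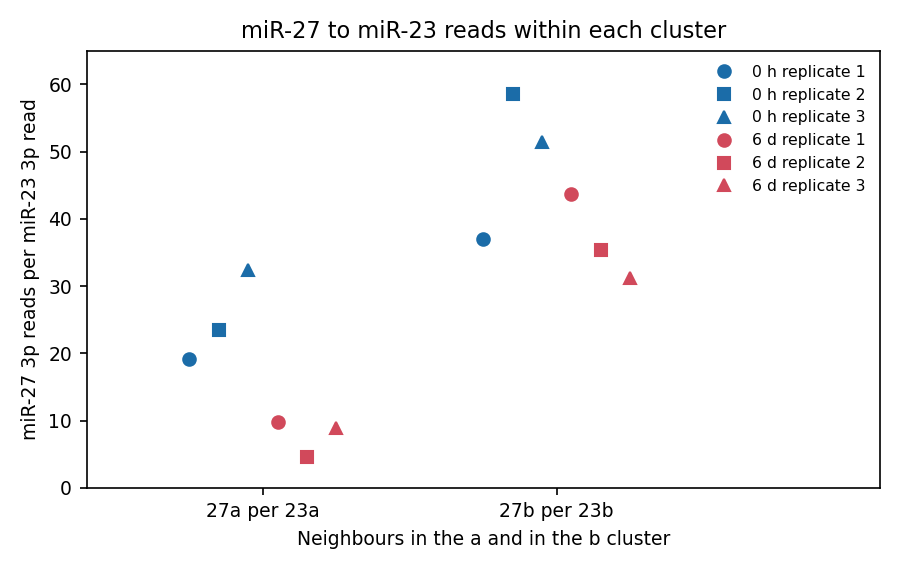
Reads of the miR-27 guide for each read of the miR-23 guide (1 read added to each) in the a cluster and in the b cluster, with 1 point per library. The a cluster value is lower in all 6 d libraries than in all 0 h libraries, and the b cluster values overlap.

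The 2 arms of a hairpin were compared by the ratio of 5p to 3p reads, fitted in limma over all 120 hairpins with both arms tested. Of the 120, 40% changed, and 0 of the 5 member hairpins did, with limma adjusted p from 0.110 to 0.714 and unadjusted p from 0.0589 to 0.654. For each 1000 reads of its 3p arm, miR-27a had 10.3, 5.28 and 5.77 reads of its 5p arm at 0 h and 1.30, 6.00 and 1.87 at 6 d, which overlapped. miR-27b had 1.30, 1.24 and 1.15 at 0 h and 1.74, 2.36 and 1.70 at 6 d, higher in each 6 d library though not past the threshold (log2 change 0.74, SE 0.36, limma adjusted p = 0.127).

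miR-24-2-5p was the passenger with the highest level relative to its guide. It had 183, 172 and 184 reads per 1000 of the shared miR-24-3p row at 0 h and 261, 204 and 143 at 6 d, so that the 6 d libraries lay on both sides of the 0 h libraries. miR-24-1-5p had 11.1, 12.5 and 11.2 per 1000 of the same row at 0 h and 8.57, 5.34 and 6.59 at 6 d, lower in each 6 d library but not past the threshold (log2 change -0.64, SE 0.37, limma adjusted p = 0.196). Since both clusters feed miR-24-3p, neither ratio is that of 1 hairpin alone.

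The passengers of miR-23 had few reads. For miR-23b-5p there were 5, 7 and 11 at 0 h against 0, 1 and 4 at 6 d, and it was not past the threshold (log2 fold change -0.09, SE 0.56, limma adjusted p = 0.904). miR-23a-5p had 0, 2 and 2 reads at 0 h and 0 in each 6 d library, where 3 reads, the limit that a count of 0 allows, equal 1.91 to 3.97 CPM. A fall of miR-23a-5p, or a rise to below that limit, was therefore not detectable at this depth. miR-27b-5p, at 12.2, 14.6 and 14.2 CPM at 0 h and 13.4, 13.2 and 9.02 at 6 d, overlapped between intervals (log2 fold change -0.20, SE 0.37, limma adjusted p = 0.693).

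Summed over its rows, each cluster took a smaller mean share of the reads at 6 d, within the spread of the libraries. At 0 h the a cluster rows held 0.587% ± 0.163 of all reads, and at 6 d 0.416% ± 0.176, while the b cluster rows held 0.978% ± 0.126 and 0.755% ± 0.201 (SD, n = 3 per interval, exact permutation p = 0.3 for both). miR-24-3p held 0.294% ± 0.0638 and 0.168% ± 0.0908 (exact permutation p = 0.2), and the adjusted p over the 4 shares compared was 0.3 for each. The third 6 d library held the most of each among the 6 d libraries. Each cluster sum was mostly its miR-27 guide. The mean share was 0.510% at 0 h and 0.340% at 6 d for miR-27a-3p, and 0.953% and 0.732% for miR-27b-3p. The miR-23 guides did not share this fall, with 0.0204% and 0.0448% for miR-23a-3p and 0.0200% and 0.0206% for miR-23b-3p.

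In order of level, miR-27b-3p, miR-27a-3p and miR-24-3p remained the 3 highest members at 6 d, without overlap between neighbours. miR-23a-3p took place 4 at 6 d, above miR-24-2-5p, and these exchanged places between the intervals. The miR-23 guides, which overlapped at 0 h, were apart at 6 d. The lower passengers miR-27b-5p, miR-24-1-5p and miR-27a-5p overlapped with their neighbours at 6 d.

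The miRNAs nearest to each guide in their pattern over the 6 libraries were found among 266 tested miRNAs outside the clusters with a mean of at least 10 CPM, as the smallest root mean square difference of centred log2 values. For miR-23a-3p these were miR-148b-3p (0.151) and miR-98-5p (0.214), and for miR-23b-3p they were miR-145a-3p (0.139) and miR-134-5p (0.153). miR-27a-3p was nearest to miR-28c (0.162) and miR-26a-5p (0.196), miR-27b-3p to miR-28a-5p (0.0541) and miR-674-5p (0.196), and miR-24-3p to miR-125b-2-3p (0.117) and miR-676-3p (0.118). Among the members themselves, the miR-27 guides differed from each other by 0.255 and miR-24-3p from miR-27a-3p by 0.298. miR-23a-3p differed by 0.569 from miR-23b-3p and by 0.955 from its neighbour miR-27a-3p. The 6 libraries share their scaling and their depth by interval, so these are descriptions.

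The miRNAs of endothelium and vessel growth, with which the clusters are often grouped, moved in both directions. Of 9 tested, 1 fell and 2 rose, beside 21.9% and 16% of all tested miRNAs, with a median log2 fold change of -0.50 against -0.33 over all tested miRNAs, and their sum took 5.84% to 8.27% of reads at 0 h and 3.27% to 5.10% at 6 d. miR-126a-3p, the characteristic endothelial miRNA, fell from 71694 to 28363 CPM (log2 fold change -1.33, SE 0.32, limma adjusted p = 0.00949), and it was the most abundant of the list, so that the summed share largely follows this row. The other arm of its hairpin, miR-126a-5p, had 844 CPM at 0 h and 821 at 6 d (log2 fold change -0.02, SE 0.34, limma adjusted p = 0.964), and the 5p to 3p ratio of miR-126a rose (log2 change 1.31, SE 0.22, limma adjusted p = 0.00199). miR-92a-3p of the miR-17-92 cluster rose (1.20, SE 0.31, limma adjusted p = 0.0133), as did miR-222-3p, a miRNA of vascular cells (1.25, SE 0.32, limma adjusted p = 0.0133). Of 10 miRNAs of cardiac growth and stress, with a median of -0.13, 3 fell and 2 rose, beside 21.9% and 16% of all tested miRNAs. Those that fell were miR-208a-3p, encoded in a cardiac myosin gene (-1.49, limma adjusted p = 0.0241), miR-214-3p (-1.59, 0.00988) and miR-29b-3p (-1.84, 0.0312). Those that rose were the muscle miRNA miR-133a-3p (1.43, limma adjusted p = 0.00688) and the stress-responsive miR-21a-5p (1.24, 0.0347).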

How the data were processed

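A NEBNext small RNA kit was used on Trizol-extracted RNA, per the labels' protocols. The submitters' processing notes name cutadapt 2.8, Trimmomatic 0.39, STAR 2.5.3a and FastQC. How reads were counted, and on which build, is not given in the sources used here. For 0 h replicate 1 the authors deposited read counts. For the other 5 libraries they deposited log2(x + 1) of scaled reads, where x was a whole multiple of 1 step per library for 2692 of 2692 values tested (within the rounding, 0.0005 on the log2 scale). The rest of the 3110 nonzero values were too large for this test at that rounding. Reads were recovered as the nearest whole number of steps. The design had foreseen 1 unit for all files. The counts were put on the scale of the others with a derived factor of 0.919, chosen so that the product of all 6 library factors is 1.

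The main test was limma 3.58.1 (R 4.3.3) (robust, with the prior trended on level) on log2(value + 1), which understates changes of low miRNAs. It took miRNAs that reached a value of 1 in 3 or more libraries. Ratios were fitted on log2 reads with 1 read added. Single ratios and shares had exact two-sided permutation tests. Alternatives were edgeR 4.0.16 and DESeq2 1.42.0 on the recovered reads, other scalings, filters and pseudocounts, thinning to 617069 reads, a replicate block, and leaving out each library. The limma fits of levels and of ratios were tested on simulated counts. These were given the same assumed relative spread beyond counting error for all miRNAs. Replicate libraries differed well beyond sampling noise (chi-square per degree of freedom of at least 215.9). A floor of 3 reads is 0.463 to 0.730 CPM at 0 h and 1.91 to 3.97 CPM at 6 d.

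All member rows are named, with values per library for the guides, and beside them the 2 miRNAs nearest to each guide and the called members of the comparison lists. Members and lists were chosen with earlier results of these data known. Sequences and coordinates are from RefSeq (GRCm38.p6), which matched 851 of the 984 miRNAs, and gene overlaps are from GENCODE.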

Additional observations from a re-analysis of the deposited data

How the results depend on the processing

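The call of miR-27b-3p was lost with RLE factors (log2 fold change -0.64), library totals (-0.40), recomputed TMM factors (-0.84), no filter (-0.86), edgeR (-0.71), DESeq2 (-0.64), thinning (-0.70) and the replicate block (-0.86), and its values were -1.03 to -0.76 leaving out 1 library. That of miR-27a-3p was lost with RLE factors (-0.88), totals (-0.65), no filter (-1.11), edgeR (-0.97) and thinning (-0.94), with -1.28 to -0.89 leaving out 1 library. miR-24-3p lost its call with totals alone (-0.92), as did miR-24-2-5p (-0.79), and miR-23a-3p gained one with RLE factors (0.85) and DESeq2 (0.86). The sign of miR-23b-5p turned with RLE factors (0.038), totals (0.29) and DESeq2 (0.46), with -0.62 to 0.48 leaving out 1 library. That of miR-27b-5p turned with RLE factors (0.0035), totals (0.22), DESeq2 (0.0082) and thinning (0.15). The cause of these shifts was not tested.

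The called miRNAs, 178 in all, were 114 to 179 leaving out 1 library, the lowest without the first 0 h library. The called a and b pairs, 14 in all, were 8 after thinning, 7 with the replicate block and 4 to 12 leaving out 1 library, and 18 of 39 after 4 near-identical pairs were removed, a choice made after the data were seen. They were 4 without the third 0 h library, 8 without the first 0 h library and 9 without the third 6 d library. The called 5p to 3p ratios, 48 in all, were 27 of 55 with both arms at a mean of at least 10, and 26 to 45 leaving out 1 library (26 without the first 0 h library). The miR-23 guide ratio was 0.94 to 1.18 leaving out 1 library, and 1.09 with p = 0.1 in the exact permutation test. The 5p to 3p ratio of miR-23b was -0.068 after thinning and 0.23 to 1.67 leaving out 1 library, called without the first 6 d library (limma adjusted p = 0.0406). That of miR-27a was -1.92 to -0.84, called without the second 6 d library (limma adjusted p = 0.0230), and that of miR-24-2 was -0.067 to 0.37.

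Replicate numbers were not taken to pair the samples: deviations of same-numbered libraries correlated by 0.0684, 0.0641 and 0.273, and the first 0 h library correlated best with the second 6 d library (0.161). The replicate block called 195 miRNAs. Where an arm was left with 2 libraries the spread was pooled over both groups. Depth limits the passengers at 6 d, where miR-27a-5p had 6 to 9 reads.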

Other observations

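The strand opposite to both miR-24 hairpins is also annotated as hairpins, Mir3074-2 on chromosome 8 (84208825 to 84208907, minus strand, GRCm38.p6) and Mir3074-1 on chromosome 13 (63301199 to 63301283, minus strand). The files hold miR-3074-5p and miR-3074-1-3p. The reads of miR-3074-5p numbered 16, 24 and 20 at 0 h, then 5, 4 and 8 at 6 d, or 3.66 ± 0.497 and 5.23 ± 2.02 CPM (SD, n = 3 each). It overlapped between the intervals, with a log2 fold change of 0.37 (SE 0.42, limma adjusted p = 0.514). miR-24-3p, from the other strand of the same loci, had 57736 reads in the 0 h libraries and 4475 in the 6 d libraries. miR-3074-1-3p had 10 reads at 0 h and 1 at 6 d and was not tested.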
